A study of Homo sapiens with 10 samples.

Results

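The genes described here encode the initiation and elongation factors of protein synthesis. They were taken as the protein-coding genes of the GENCODE 29 basic annotation whose symbols start with EIF1, EIF2, EIF3, EIF4, EIF5, EIF6 or EEF, without the EIF2AK kinases, which gave 68 genes of the 58721 genes of all kinds in that annotation. RNA editing sites lay in 46 of these factor genes with at least 1 of 2 deaminases, and 22 had none. A site entered the tests where each of the 5 libraries of its deaminase had 1 read or more, which left 32 factor genes with 114 sites for APOBEC1 and 25 factor genes with 65 sites for ADARcd.

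The cells were HUDEP-2, an established human erythroid progenitor line. Each of 10 libraries carried a different construct under a doxycycline-inducible promoter (TRE), and there were no replicates. The bait was FAM46C, now named TENT5C. It is a poly(A) polymerase of the non-canonical kind, which lengthens mRNA tails. It was fused to APOBEC1, which turns C into U, through a linker of 7, 27, 52 or 74 amino acids (aa). It was also fused to ADARcd, the catalytic domain of ADAR, which turns A into inosine that is read as G, through a linker of 7, 27, 47 or 74 aa. GFP fused to the same deaminase through 7 aa was the control, so only the 7 aa pair is matched in linker, and the 4 comparisons of a deaminase share its GFP library. All cells received doxycycline, for 48 h per the sample labels and for 24 h per the text of the series. The fusion of an RNA-binding protein with a deaminase marks the RNAs it comes near, and the measure is the edited share, the percent of reads at a site that carry the edited base.

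Total reads at all sites were between 627323 and 749000 in the APOBEC1 libraries. In the ADARcd libraries they were 479108 for GFP, 522608 for the 7 aa fusion and between 160157 and 203555 for the longer linkers. Reads at the factor genes were between 6662 and 7891 and between 4898 and 7849 per library. Transcripts of the bait gene TENT5C were edited at 3.13% in the APOBEC1 GFP library and at 85.5% to 89.2% in its fusions, and at 1.54% and 3.96% to 12.2% with ADARcd. A site is listed only where some library of its deaminase had at least 2 edited reads, so the tables show edited sites and not expression. Where a single library met this minimum, its edited reads are the highest by the listing itself, which the tests do not allow for. Sites of 1 gene can share reads, fewer transcripts and fewer cells cannot be told apart in bulk RNA, and reads of overlapping or antisense genes cannot be told apart because the labels state no strand.

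As background, translation starts when eIF2, bound to GTP and the initiator transfer RNA, joins the small ribosomal subunit with eIF1, eIF1A, eIF5 and the multi-subunit eIF3. The cap-binding complex eIF4F (eIF4E, the scaffold eIF4G and the helicase eIF4A) recruits the mRNA, and the eIF4E-binding proteins block it. Elongation then runs on eEF1A, which delivers aminoacyl transfer RNAs, and eEF2, which moves the ribosome and is inhibited by eEF2 kinase. In erythroid cells, which make globin in bulk, phosphorylation of eIF2 couples protein synthesis to heme supply.

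The sites on which the results turn are shown as 25 bases of the GENCODE 29 transcript, 5′ to 3′ on the strand of the gene, with the edited base in capitals. They were chosen because they carry a called difference, edited reads behind one, or a listing in the authors' deposited tables. All positions are on GRCh38.
EIF4A1, C at chromosome 17, position 7578579, 3′ UTR: ccaagggatggaCatcttgtcattt
EIF2S3, A at chromosome X, position 24077208, 3′ UTR: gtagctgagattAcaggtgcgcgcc
EIF2S3, C at chromosome X, position 24077903, 3′ UTR: ttatgattgtgaCatagattatact
EIF1AX, C at chromosome X, position 20126751, 3′ UTR: ggagttcgtgaaCacatctaggtgg
EIF1AX, C at chromosome X, position 20127644, 3′ UTR: gcagaaattgaaCactaggtggcac
EIF4EBP2, C at chromosome 10, position 70422783, 3′ UTR: gtggtagttgttCttagattgcagt
EIF4EBP2, A at chromosome 10, position 70422142, 3′ UTR: gaagtctggggaAgggatacagagc
EIF3C, A at chromosome 16, position 28726635, coding: aggatgaggcccAggtgtgtgccat
EIF5A, C at chromosome 17, position 7312441, 3′ UTR: tgaataaaactaCaagtttaatatg

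With the gene-level test, the edited share of 6 factor genes differed from GFP in at least 1 fusion library. EIF4A1 was higher with the 7 aa APOBEC1 fusion. EIF1AX and EIF2S3 were lower with the 74 aa APOBEC1 fusion. EEF2K, EIF2S3, EIF3C and EIF4EBP2 were lower with the 7 aa ADARcd fusion, and EIF2S3 also with the 27 and 47 aa ADARcd fusions. The test is Fisher's exact test (two-sided) on the edited and unedited reads of 2 libraries, with Benjamini-Hochberg adjustment over 5157 genes (APOBEC1) or 3918 genes (ADARcd), with a threshold of 0.05 on the adjusted p. It compares those libraries and not the conditions, and no difference here has a replicate check.

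Set against all genes, these counts were near the background except with the 7 aa ADARcd fusion and for EIF2S3. With the 7 aa APOBEC1 fusion 1 of 32 factor genes was called higher, where 3.8% of all genes were, and 0 were called lower (0.853% of all genes). With 27 aa the counts were 0 higher (1.51%) and 0 lower (1.34%), with 52 aa 0 higher (1.05%) and 0 lower (0.892%), and with 74 aa 0 higher (0.097%) and 2 lower (5.24%). With ADARcd and 7 aa 0 of 25 were higher (0.051%) and 4 were lower, where 3.22% of all genes were. Of these 4 only EIF2S3 remained in the test against the odds ratio of all reads given below. In this comparison 18 of 25 factor genes had 50 or more reads in both libraries, against 2335 of all 3918 genes. The effect of this depth on the counts was not tested. With 27 aa the counts were 0 higher (0.459%) and 1 lower (0.408%), with 47 aa 0 higher (0.383%) and 1 lower (0.383%), and with 74 aa 0 higher (0.357%) and 0 lower (0.179%). At an unadjusted p under 0.05 in Fisher's exact test, 4, 5, 3 and 6 of 32 factor genes passed in the APOBEC1 comparisons, in the order of linker length, and 674, 518, 457 and 607 of all 5157 genes. In the ADARcd comparisons 5, 3, 4 and 4 of 25 factor genes passed in this exact test, and 334, 284, 353 and 319 of all 3918 genes.

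A second test at single sites, again Fisher's exact test, took every site with at least 10 reads in both libraries. With APOBEC1 it called 1 site of a factor gene higher at 7 aa, in EIF4A1, where 0.458% of all sites were called, and 0 lower (0.0265%). At 27 aa it called 0 higher (0.142%) and 0 lower (0.00678%), at 52 aa 0 higher (0.101%) and 0 lower (0.0201%), and at 74 aa 0 higher (0.00664%) and 0 lower (0.0864%). With ADARcd it called the same EIF2S3 site lower at 7 aa (1.42% of all sites), 27 aa (0.269%) and 47 aa (0.216%). It called 0 sites higher at 7 aa (0%), 27 aa (0.192%) and 47 aa (0.0216%), and at 74 aa 0 higher (0.0656%) and 0 lower (0.0656%). At an unadjusted p under 0.05 in this exact test between 0 and 5 factor sites passed in each comparison and direction. The share of all sites at that threshold is not given here, so these counts cannot be set against a background.

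The whole libraries also differed in level. Over all tested genes the pooled edited share was 2.81% in the APOBEC1 GFP library and 4.09%, 2.97%, 2.86% and 1.15% in the 7, 27, 52 and 74 aa fusions. With ADARcd it was 2.71% in GFP and 1.39%, 3.18%, 2.94% and 3.41% in the 7, 27, 47 and 74 aa fusions. An exact test that takes the odds ratio of all reads between 2 libraries as its null value was therefore run beside the first. Under it the calls of EIF4A1 (adjusted p = 0.0604, exact test), of EIF1AX and EIF2S3 with the 74 aa APOBEC1 fusion (0.300 and 0.174), and of EEF2K, EIF4EBP2 and EIF3C (0.412, 0.401 and 0.867) were lost. With APOBEC1 it called 0 factor genes higher (1.42% of all genes) and 2 lower (1.92%) at 7 aa, EIF1AX and EIF4EBP2. It called 0 higher (1.36%) and EIF1AX lower (1.57%) at 27 aa, 0 higher (1.05%) and 0 lower (1.05%) at 52 aa, and 0 higher (0.524%) and 0 lower (0.427%) at 74 aa. With ADARcd it called EIF2S3 lower at 7 aa (0.817%), 27 aa (0.434%) and 47 aa (0.408%), with 0 higher (0.281%, 0.357% and 0.306%), and at 74 aa 0 higher (0.153%) and 0 lower (0.23%).

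**Figure D1:**
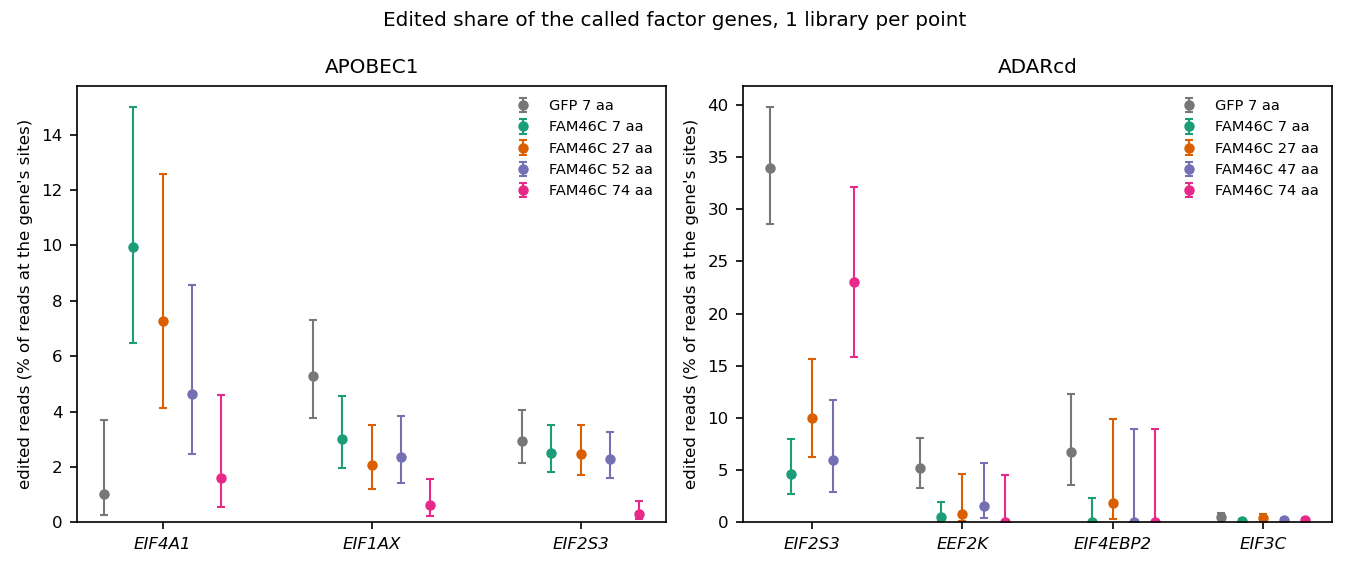
Edited share (percent of reads at the gene's sites, vertical axis) of the called factor genes in each library, APOBEC1 on the left and ADARcd on the right. Points are single libraries and bars are 95% Wilson intervals, which cover counting error only. EIF4A1 is highest in the 7 aa fusion at 9.95%, and EIF2S3 with ADARcd is highest in GFP at 34.0%.

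Among the factors of the preinitiation complex and start-codon selection, EIF1AX (chromosome X, 20124518 to 20141844) encodes eIF1A, which steadies the scanning ribosome. It had 14 APOBEC1 sites, all in the 3′ UTR and between 1665 and 3634 nt from the annotated transcript end. The edited share was 5.28% in GFP (33 of 625 reads, 95% Wilson interval 3.78 to 7.32) and 3.01%, 2.08%, 2.35% and 0.614% in the 7, 27, 52 and 74 aa fusions. All 4 fusions lay below GFP, and the 74 aa library (4 of 651 reads, 0.239 to 1.57) was the lowest.

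For EIF1AX the adjusted p of Fisher's exact test was 2.62e-05 for the 74 aa fusion, against 0.384, 0.102 and 0.195 for those of 7, 27 and 52 aa. Its sites did not all show the same order of libraries. At position 20126751 4 of 22 reads were edited in GFP and 0 of 20, 0 of 21, 0 of 13 and 0 of 21 in the fusions, which allows up to 15.0%, 14.3%, 23.1% and 14.3%. That site met the listing minimum in GFP alone, so its listing already placed GFP highest in edited reads. At position 20127644 the shares were 2.94% in GFP and 5.13%, 8.45%, 6.85% and 3.03% in the fusions, so there GFP was the lowest library. Neither site passed the site-level test.

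The other genes with tested sites in this group were EIF5, the GTPase-activating protein of eIF2, EIF5B, which joins the ribosomal subunits, EIF1B, EIF1AY and, grouped by symbol only, EIF1AD. None of their gene-level tests passed. EIF5B, which had 8 APOBEC1 sites, was at 2.81% in GFP and 4.57%, 4.15%, 2.94% and 1.29% in the 7, 27, 52 and 74 aa fusions. Its lowest adjusted p over the 4 comparisons in Fisher's exact test was 0.770. In the authors' deposited table for the 47 aa ADARcd fusion EIF5B is listed at p = 0.0374, at a coding site (K102R) where 2 of 47 reads were edited against 0 of 194 in GFP. EIF5 is in the authors' deposited table for the 27 aa ADARcd fusion at p = 0.0233, at a 3′ UTR site with 7 of 112 reads against 3 of 210. Neither site passed when p-values were adjusted over all sites (0.539 and 0.652 in Fisher's exact test).

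EIF2S3 (chromosome X, 24054716 to 24077971) encodes the gamma subunit of eIF2, the part that binds GTP and the initiator transfer RNA. It was the factor gene with the most APOBEC1 sites, 19, all in the last exon, exon 12 of 12, between 26 and 1047 nt from the transcript end. Its edited share was 2.94% in GFP (36 of 1223 reads, 2.13 to 4.05) and 2.52%, 2.46% and 2.29% in the 7, 27 and 52 aa fusions. In the 74 aa fusion it was 0.304% (4 of 1316 reads, 0.118 to 0.779), the only fusion whose interval did not overlap that of GFP.

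The adjusted p of Fisher's exact test at 74 aa was 3.00e-06 for EIF2S3. The sites nearest the end and the others stood in a different order. Over the 8 sites within 100 nt of the end the shares were 3.43% in GFP and 4.79%, 3.36%, 4.30% and 0.193% in the 7, 27, 52 and 74 aa fusions. Over the 11 sites farther away they were 2.65% in GFP and 1.35%, 1.94%, 0.930% and 0.376%. The site at position 24077903, 68 nt from the end, had 2 of 63 edited reads in GFP and 7 of 57, 3 of 51, 9 of 64 and 1 of 65 in the fusions. It is listed in the authors' deposited table for the 52 aa fusion at p = 0.0288, and did not pass the site-level test here.

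**Figure D2:**
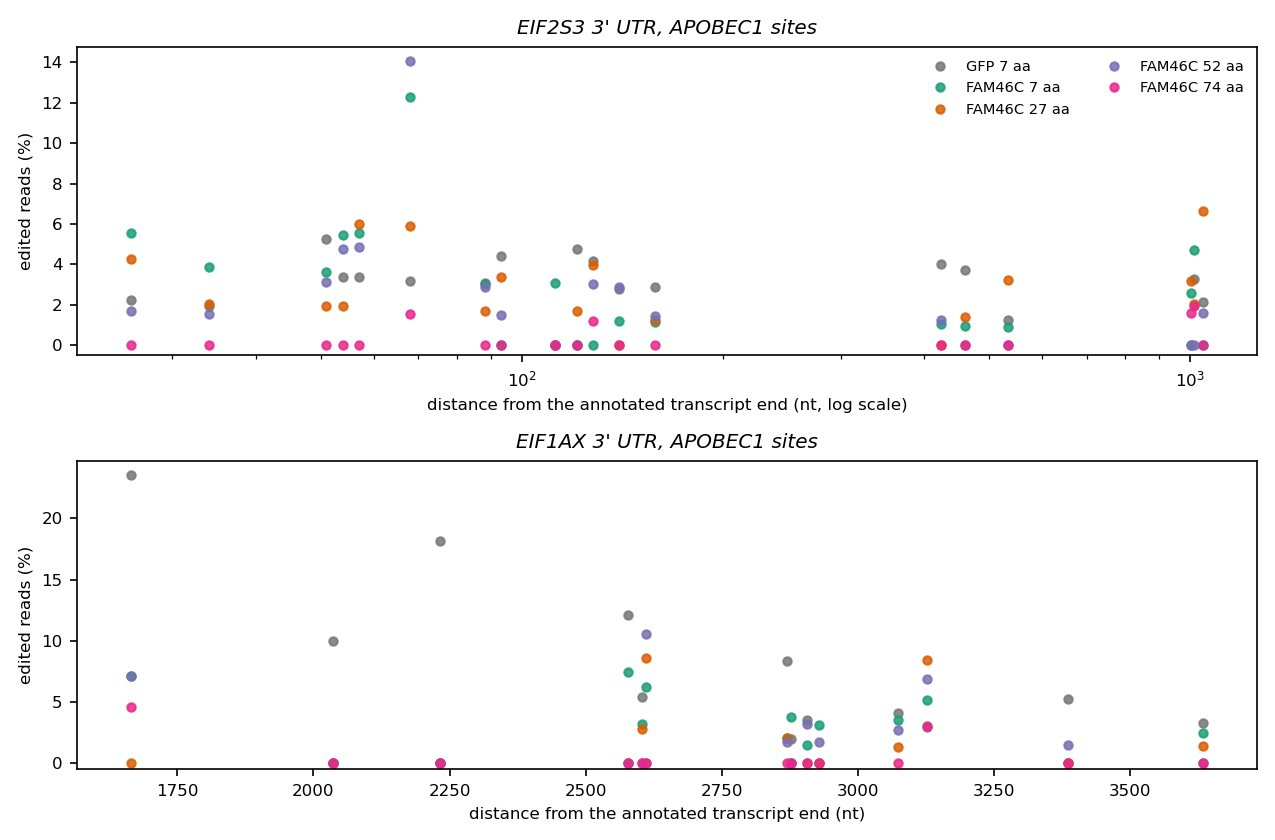
Edited share in percent (vertical axis) at each APOBEC1 site of the EIF2S3 and EIF1AX 3′ UTRs against the distance from the annotated transcript end in nt (log scale for EIF2S3), 1 point per site and library. The highest EIF2S3 points are those of the 52 and 7 aa fusions at 68 nt, and at 2036 and 2233 nt of EIF1AX all fusion libraries are at 0 while GFP is at 10% and 18.2%. Those EIF1AX sites met the listing minimum in GFP alone, so GFP is highest there by the listing itself.

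With ADARcd EIF2S3 had the lowest adjusted p of any factor gene at 7, 27 and 47 aa. At the 3′ UTR adenosine at position 24077208, 763 nt from the end, 91 of 231 reads (39.4%) were edited in GFP. The fusions had 11 of 218 reads (5.05%) at 7 aa, 16 of 148 (10.8%) at 27 aa, 7 of 102 (6.86%) at 47 aa and 21 of 90 (23.3%) at 74 aa. All 4 fusions were below GFP, and the 74 aa library was the nearest to it.

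At gene level EIF2S3 was at 34.0%, 4.65%, 10%, 5.93% and 23.0% in GFP and the 7, 27, 47 and 74 aa ADARcd fusions. The adjusted p of Fisher's exact test was 5.05e-16, 7.57e-06, 5.18e-07 and 0.567 in the same order of fusions. The other ADARcd site of the gene is intronic, at position 24075951, with 0 of 37 edited reads in GFP and 1 of 40, 0 of 12, 0 of 16 and 2 of 10 in the fusions. Without the 3′ UTR site no EIF2S3 call remained. The intronic site is the one listed for EIF2S3 in the authors' deposited table for the 74 aa fusion, at p = 0.0416. The site-level adjusted p of position 24077208 in Fisher's exact test was 1.46e-16, 6.00e-07, 1.57e-07 and 0.576 in the order of linker length.

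The other genes of this group, EIF2S2 (the beta subunit), EIF2A and EIF2D, passed no gene-level test. EIF2A, with 4 APOBEC1 sites, was at 2.82% in GFP and 1.35%, 0%, 1.05% and 0.469% in the 7, 27, 52 and 74 aa fusions, where 0 of 182 reads allows up to 1.65%. EIF2D was listed at 2 coding sites of APOBEC1 (H570Y and R178W) and 3 of ADARcd (K582E, S371G and G109G), with at most 2 edited reads in any library at each. EIF2S1, the alpha subunit whose phosphorylation slows initiation, had 1 ADARcd site, which lacked reads in some library and was not tested.

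The exchange factor eIF2B reloads eIF2 with GTP. EIF2B1 (alpha subunit) was edited with ADARcd at a 3′ UTR site, chromosome 12, position 123621529, in 12 of 167 GFP reads (7.19%, 4.16 to 12.1). The 7, 27, 47 and 74 aa fusions had 3 of 175 (1.71%), 1 of 51 (1.96%), 1 of 43 (2.33%) and 2 of 33 reads (6.06%). All 4 were below GFP, but the adjusted p of Fisher's exact test was 0.301 at 7 aa and 1 for the longer linkers. EIF2B3 and EIF2B4 passed no test, and EIF2B2 and EIF2B5 had no site.

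Of the subunits of eIF3, the scaffold that holds the preinitiation complex together, EIF3C had the most ADARcd sites of any factor gene, 14, all in coding sequence. The base on the EIF3C transcript was A at 11 of them and T at the others. It was at 0.565% in GFP (18 of 3186 reads, 0.358 to 0.891) and at 0.0953% (3 of 3149), 0.453% (13 of 2872), 0.198% (5 of 2526) and 0.191% (5 of 2613) in the 7, 27, 47 and 74 aa fusions. All fusions were below GFP, and only the interval of the 7 aa library (0.0324 to 0.280) did not overlap that of GFP. The adjusted p at 7 aa was 0.0466 in Fisher's exact test, and 0.0646 with no minimum on reads. No EIF3C site had more than 4 edited reads in any ADARcd library. Most edited GFP reads lay at sites that met the listing minimum in GFP alone, and other sites met it in a single fusion alone. The EIF3C tests are therefore not independent of the listing. The highest GFP count was at position 28726635, a Q478R change, with 4 of 224 reads against 0 of 223, 0 of 219, 0 of 169 and 0 of 180 in the 7, 27, 47 and 74 aa fusions.

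EIF3C has a near-identical copy, EIF3CL, on the same chromosome. Their annotated coding sequences of 2742 and 2745 nt align with 0 mismatches, so the authors' counting could split reads between them and either gene's values are uncertain. EIF3CL with ADARcd was at 0.278% in GFP and 0.0566%, 0.192%, 0.339% and 0.411% in the 7, 27, 47 and 74 aa fusions, and passed no test. With both copies summed, the adjusted p at 7 aa was 0.0132 (Fisher's exact test). With APOBEC1 both copies were at 0.708% or less in every library and passed no test. They hold most of the coding-sequence reads of the factor genes.

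The remaining eIF3 subunits with tested sites were EIF3A, EIF3D, EIF3E, EIF3H, EIF3J, EIF3K and EIF3L, and none was called. EIF3A, which anchors the complex, was edited with APOBEC1 in 4 of 64 GFP reads and in 0 of 70, 0 of 30, 0 of 41 and 0 of 54 reads of the fusions, which allow up to 4.29%, 10%, 7.32% and 5.56%. The lowest adjusted p was 0.379 (Fisher's exact test). EIF3K, a small peripheral subunit, had 6 tested ADARcd sites, all intronic, with 4 of 56 edited reads in GFP (7.14%). The 7, 27, 47 and 74 aa fusions had 4 of 62 (6.45%), 3 of 15 (20%), 2 of 22 (9.09%) and 7 of 15 reads (46.7%, 24.8 to 69.9). The 74 aa library stood highest on few reads, with an unadjusted p of 0.000996 and an adjusted p of 0.103 in Fisher's exact test. EIF3H was, with EIF4A1, one of the 2 factor genes whose APOBEC1 share was above GFP in all 4 fusions. It was at 0.840% in GFP and at 5.13%, 1.33%, 2.88% and 0.901% in the 7, 27, 52 and 74 aa fusions, with 1 of 119, 4 of 78, 1 of 75, 4 of 139 and 1 of 111 edited reads.

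In the cap-binding group, EIF4A1 (chromosome 17, 7572706 to 7579005), the RNA helicase of eIF4F, had a single APOBEC1 site, in its last exon (exon 11 of 11) and 426 nt from the transcript end. It was edited in 2 of 193 GFP reads (1.04%, 0.285 to 3.70). The fusions had 19 of 191 reads (9.95%, 6.46 to 15.0) at 7 aa, 11 of 151 (7.28%) at 27 aa, 9 of 194 (4.64%) at 52 aa and 3 of 188 (1.60%) at 74 aa. All 4 were above GFP, in the order of the linkers from short to long, and the 52 and 74 aa intervals overlapped that of GFP. The pooled share over all tested genes fell in the same order of fusions, and each linker had 1 library.

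For EIF4A1 the adjusted p of the gene-level Fisher's exact test was 0.00327, 0.0893, 0.619 and 1 in the order of linker length. The site-level test gave 0.0213 at 7 aa. The authors' deposited tables list it for the 7, 27 and 52 aa fusions, at p = 6.89e-05, 0.00278 and 0.0315. A read-through gene, SENP3-EIF4A1, spans the same position, so its reads cannot be told apart from those of EIF4A1.

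**Figure D3:**
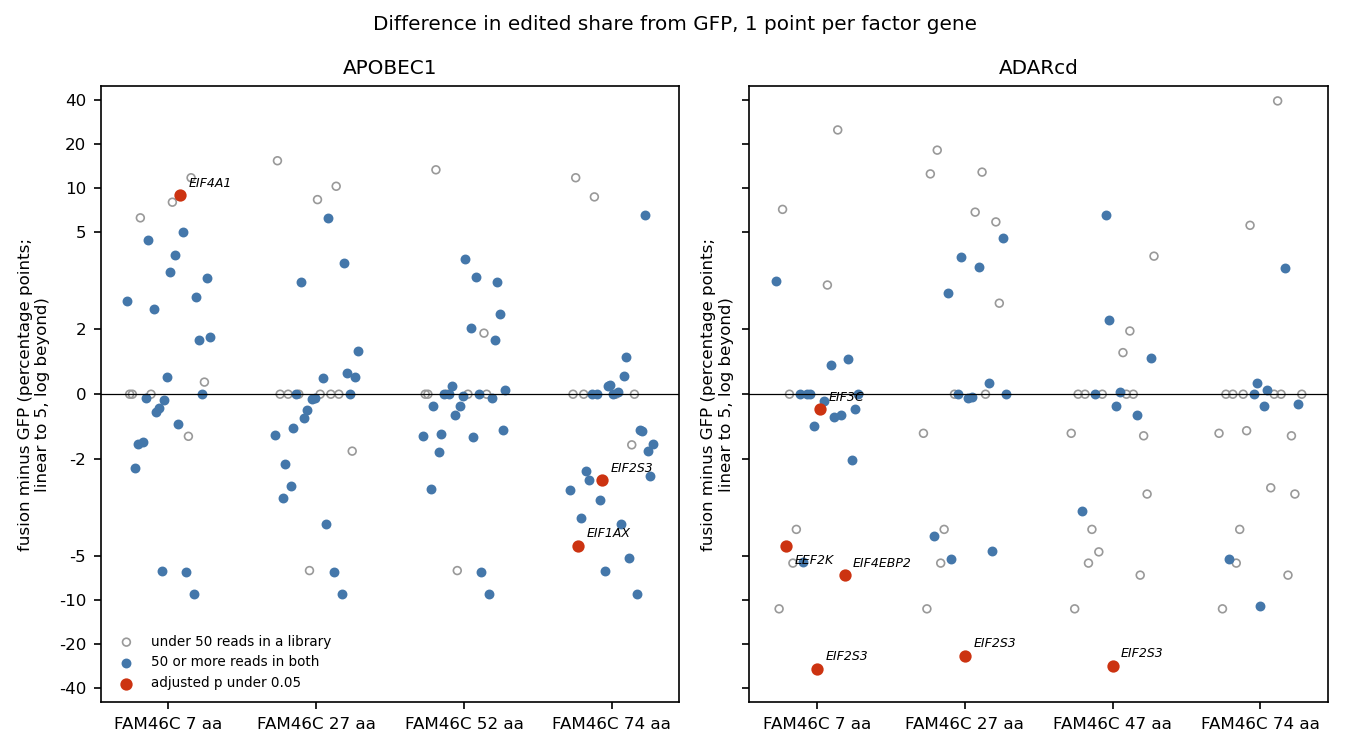
Difference in edited share from GFP of the same deaminase (percentage points, vertical axis, linear to 5 and logarithmic beyond) for each tested factor gene and fusion, 1 point per gene. Open points have under 50 reads in either library and red points passed the gene-level test. The called genes are EIF4A1 above 0 and EIF1AX, EIF2S3, EEF2K, EIF4EBP2 and EIF3C below it, and many larger differences are open points.

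Other cap-binding factors passed no test. EIF4G2, an eIF4G relative that serves cap-independent initiation, was at 1.64% in GFP and 3.31%, 2.29%, 3.30% and 0.515% in the 7, 27, 52 and 74 aa APOBEC1 fusions. EIF4B, a cofactor of the helicase, had 6 of 94 edited GFP reads at 1 site against 0 of 61, 0 of 61, 0 of 70 and 1 of 81 in the fusions, with a lowest adjusted p of 0.490 (Fisher's exact test). EIF4E, the cap-binding protein itself, had between 25 and 42 reads per library, too few to show a difference under the size of its intervals. EIF4E2, a cap-binding homolog that represses translation, was edited with ADARcd at a coding site (K239R) in 1 of 156 GFP reads and 0 of 133, 1 of 100, 0 of 72 and 3 of 66 reads of the 7, 27, 47 and 74 aa fusions.

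EIF4EBP2 (chromosome 10, 70404379 to 70428618) encodes a repressor that binds eIF4E and is released when mTOR phosphorylates it. Its GFP share was above that of all 4 fusions with each deaminase, at different sites. Of these 8 comparisons the 7 aa one with ADARcd passed the gene-level Fisher's exact test, while against the odds ratio of all reads only the 7 aa one with APOBEC1 did (adjusted p = 0.0227, exact test). Every tested EIF4EBP2 site met the listing minimum of 2 edited reads in GFP alone. Its listing therefore already placed GFP highest in edited reads, and these tests are not independent of that. With APOBEC1 7 of 78 GFP reads (8.97%, 4.42 to 17.4) were edited over 2 3′ UTR sites. The fusions had 0 of 96, 0 of 89, 0 of 57 and 0 of 84, which allow up to 3.13%, 3.37%, 5.26% and 3.57% in the 7, 27, 52 and 74 aa libraries. The adjusted p of Fisher's exact test with APOBEC1 was 0.0616, 0.106, 0.362 and 0.0828.

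With ADARcd EIF4EBP2 was edited in 9 of 134 GFP reads (6.72%, 3.57 to 12.3). The fusions had 0 of 158, 1 of 53, 0 of 39 and 0 of 39 edited reads at 7, 27, 47 and 74 aa, and the zeros allow up to 1.90%, 7.69% and 7.69%. The 7 aa comparison passed with an adjusted p of 0.0281 in Fisher's exact test. It did not pass when sites needed at least 10 reads in all 5 libraries (0.176). At the longer linkers the depth was too low to show a difference of this size.

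EIF5A, which relieves stalled ribosomes and carries hypusine, had 2 APOBEC1 sites 14 and 17 nt from the transcript end and a 5′ UTR site. At position 7312441 the reads edited were 0 of 62 in GFP and 5 of 44, 1 of 30, 0 of 49 and 0 of 51 in the 7, 27, 52 and 74 aa fusions. It is in the authors' deposited table for the 7 aa fusion at p = 0.0107. The adjusted p was 0.741 for the site and 0.642 for the gene in Fisher's exact test.

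Of the genes grouped as elongation factors by symbol, EEF1E1, which encodes a subunit of the aminoacyl-tRNA synthetase complex, had the most reads, at 6 APOBEC1 sites. It was at 4.26% in GFP (19 of 446 reads, 2.74 to 6.56) and 7.14%, 3.01%, 2.98% and 1.32% in the 7, 27, 52 and 74 aa fusions, and no comparison passed (lowest adjusted p 0.163, Fisher's exact test). The site at chromosome 6, position 8079819, is listed for it and for the read-through gene EEF1E1-BLOC1S5 in the authors' deposited table for the 7 aa fusion, at p = 0.0490. EEF1A1, the abundant carrier of aminoacyl transfer RNAs, had no APOBEC1 site and 2 ADARcd sites with 1 of 83 edited GFP reads and 4 of 85 at 7 aa. EEF2, EEF1B2 and EEF1G had no site with either deaminase.

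Among the enzymes that modify elongation factors, EEF2K (chromosome 16, 22206282 to 22288732), the kinase that inactivates eEF2, was edited with ADARcd in 18 of 346 GFP reads (5.20%, 3.32 to 8.07) over 6 sites. The fusions had 2 of 374 (0.535%), 1 of 119 (0.840%), 2 of 125 (1.60%) and 0 of 80 reads, which allows up to 3.75%, at 7, 27, 47 and 74 aa. All 4 were below GFP, and the adjusted p of Fisher's exact test was 0.00579, 0.608, 0.627 and 0.567 in the order of linker length. All 18 edited GFP reads lay at sites that met the listing minimum in GFP alone, so these tests are not independent of the listing. Without its site of most edited reads the 7 aa comparison no longer passed (adjusted p = 0.650, Fisher's exact test), nor did it with at least 10 reads in all 5 libraries (0.816). Another site of EEF2K, the coding L187L at position 22251265, had 5 of 52 edited GFP reads and 0 of 58, 0 of 16, 0 of 18 and 0 of 11 in the fusions. EEF2KMT and EEF1AKMT2, methyltransferases of eEF2 and eEF1A, were tested and not called.

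The direction of the factor genes is given here beside that of all genes, and the difference between them was not tested. With APOBEC1 9 of 32 (28.1%) were below GFP in all 4 fusions, where 26.0% of all genes were, and 2 (6.25%) were above in all 4, where 4.83% of all genes were. With ADARcd 8 of 25 (32.0%) were below in all 4, where 20.7% of all genes were, and 0 were above, where 1.81% were. The median difference from GFP over the factor genes was 0.19, 0, 0 and -1.11 percentage points in the 7, 27, 52 and 74 aa APOBEC1 fusions, and 0, 0, 0 and -0.19 over all genes. With ADARcd it was -0.44, 0, 0 and -0.29 at 7, 27, 47 and 74 aa, and 0 in each comparison over all genes. These medians depended on depth. Among genes with 50 or more reads in both libraries, the APOBEC1 medians were 0.26, -0.15, -0.09 and -1.75 over 24, 21, 24 and 25 factor genes. Over all genes of that depth they were 0.78, 0, 0 and -1.11. The ADARcd medians were -0.46, 0, 0 and -0.15 over 18, 13, 9 and 8 factor genes, and 0, 0, 0 and 0.34 over all genes of that depth.

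By transcript region, 83 of the 115 APOBEC1 sites of the factor genes lay in 3′ UTRs (72.2%, against 63.1% of all 18071 sites) and 29 in coding sequence. Of the 104 ADARcd sites 40 were coding (38.5% against 24.1% of 16768 sites), 16 in 3′ UTRs and 45 intronic (43.3% against 53.0%). In 3′ UTRs the pooled APOBEC1 share of the factor genes was 3.38% in GFP and 3.73%, 2.68%, 2.67% and 0.588% in the 7, 27, 52 and 74 aa fusions. Over all genes it was 3.36%, 4.96%, 3.44%, 3.40% and 1.07%. In the 100 nt next to the transcript end, where 16 sites of 6 factor genes lay, the values were 2.59% in GFP and 4.69%, 3.30%, 3.95% and 0.207% in the fusions, against 2.29%, 7.82%, 5.32%, 4.81% and 1.38% over all genes.

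In coding sequence the pooled shares were lower. The factor genes were at 0.225%, 0.725%, 0.253%, 0.145% and 0.755% in GFP and the 7, 27, 52 and 74 aa APOBEC1 fusions, against 1.46%, 1.70%, 1.69%, 1.28% and 1.29% over all genes. Without EIF3C and EIF3CL, a setting chosen after seeing the data, they were at 0% (0 of 362 reads), 2.17%, 1.41%, 0.673% and 2.65%. With ADARcd the coding values were 0.600% in GFP and 0.128%, 0.540%, 0.451% and 0.377% in the 7, 27, 47 and 74 aa fusions, and without the 2 copies 1.11%, 0.301%, 1.93%, 2.30% and 1.37%, against 1.08%, 0.406%, 1.97%, 2.03% and 2.23% over all genes. The 3′ UTR values with ADARcd were 11.1% in GFP and 1.93%, 5.44%, 2.62% and 6.92% in the fusions. Without EIF2S3, also chosen after seeing the data, they were 4.21%, 1.23%, 3.27%, 1.08% and 1.17%, so a single gene held much of the GFP level.

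**Figure D4:**
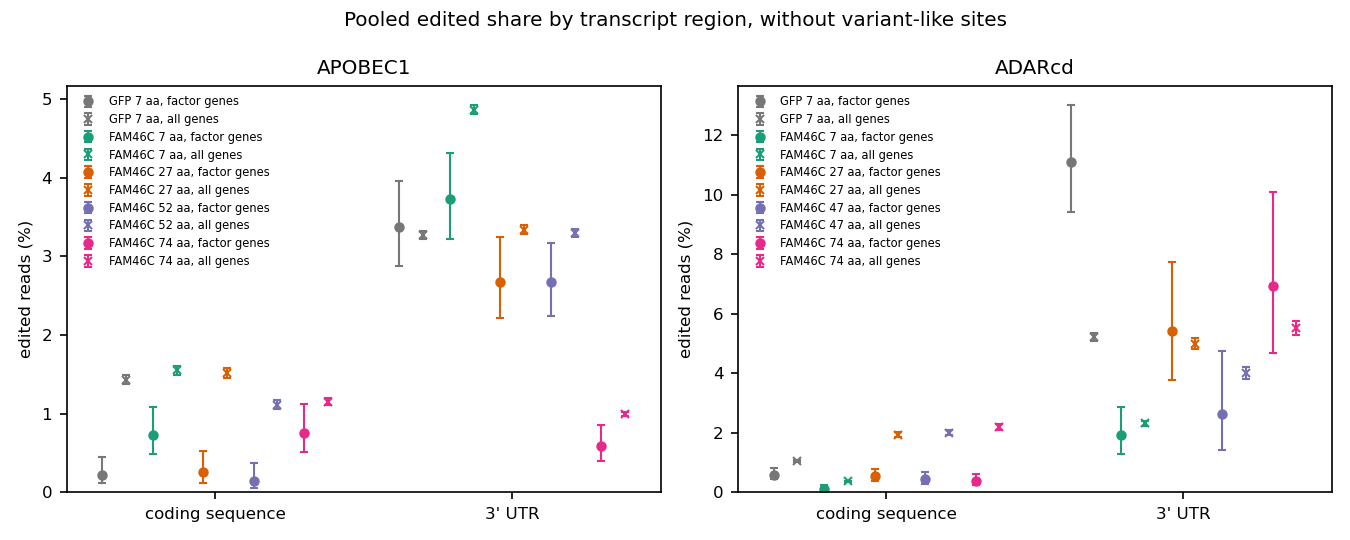
Pooled edited share in percent (vertical axis) by transcript region, with factor genes as circles and all genes as crosses, without sites edited at 40% or more over the pooled libraries. Bars are 95% Wilson intervals for counting error only. In coding sequence the factor genes lie below all genes in every library, which holds with EIF3C and EIF3CL included, and in ADARcd 3′ UTRs the GFP value of 11.1% stands above the others.

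Of the coding changes that could be read from the transcripts, the APOBEC1 sites gave 11 missense, 7 stop and 9 synonymous codons and the ADARcd sites 30 missense and 4 synonymous codons. Edited reads per site were few. In 68 of the 115 APOBEC1 sites and 84 of the 104 ADARcd sites the highest library had exactly 2 edited reads, the fewest with which a site is listed. Sites edited at 40% or more over the pooled libraries numbered 1 and 30, and none of the 30 ADARcd ones had reads in all 5 libraries, so they entered no gene-level test. The site-level test took 1 of them, in EIF2B1, and did not call it (6 of 10 reads in GFP and 2 of 10 at 27 aa, adjusted p = 0.750, Fisher's exact test). For the counts of sites in this paragraph the shares over all sites are not given, so no difference from other genes can be read.

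The bases around the sites were like those of other genes. The base before the edited C was A at 68 of 111 factor sites (61.3%, against 63.1% of 16593 sites), as in EIF4A1, EIF1AX and EIF5A above. The 20 flanking bases held a median of 70.0% A or T against 65.0%. The base after the edited A was G at 29 of 52 ADARcd sites (55.8%, against 46.0% of 7076).

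Of 23 other genes of the translation pathway (termination and recycling factors, eIF2 kinases and phosphatase subunits, ATF4, eIF4F and poly(A)-binding protein regulators and the hypusine enzymes) 14 were tested with APOBEC1 and 10 with ADARcd. PAIP2, which restrains the poly(A)-binding protein, was higher at 7 aa (33 of 631 reads, 5.23%, against 4 of 372, 1.08%, adjusted p 0.0124, Fisher's exact test). ABCE1, which recycles ribosomes, and DENR, a reinitiation factor, were lower at 27 and 74 aa. ABCE1 was at 2.84% in GFP and 1.23%, 0.304%, 1.41% and 0.135% in the 7, 27, 52 and 74 aa fusions, and DENR had 11 of 229 edited reads in GFP and 4 of 310, 0 of 250, 2 of 277 and 0 of 215. In the order of linker length the list gave 1, 0, 0 and 0 higher calls of 14 genes, where 3.8%, 1.51%, 1.05% and 0.097% of all genes were called. It gave 0, 2, 0 and 2 lower calls, where 0.853%, 1.34%, 0.892% and 5.24% of all genes were, and with ADARcd no gene of it passed at any linker.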

How the data were processed

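The 10 libraries of polyadenylated RNA from HUDEP-2 cells held 1 construct each. The deposited site tables hold counts of unedited and edited reads per site and library, made by the authors, and the deposited gene tables hold the authors' p-values. Per the submitters' processing notes, the tools and build included Picard 2.27.1, SAMtools 1.18, HISAT2 2.2.1 and GRCh38, and the site caller and its filters are not given in the sources used here. Another 48 columns of per-sample values in the deposited tables match no label and were not used.

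Sites were placed in GENCODE 29 genes and transcripts on GRCh38, each in 1 gene. The edited share is edited reads over all reads of the gene's sites. Gene and site tests were two-sided Fisher's exact tests with Benjamini-Hochberg adjustment over all genes or sites (SciPy 1.17.1, pandas 2.3.3, numpy 2.4.6, matplotlib 3.10.9, Python 3.11.15), tested on simulated data. Intervals are 95% Wilson intervals. The upper limit for 0 edited reads is 3 counts of the total. Both cover counting error only, since reads carry no molecular identifiers. Reads per site reached at most 314, so deep sites may be capped. 

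The members and gene lists were chosen with earlier results of these data known. Named genes are the members called in any comparison, the 10 with the most reads per deaminase and those in a deposited gene table, with the site of most edited reads of most of them (1 such site is not reported here, and some appear only in the gene's total), plus called genes of the other pathway list. Some further members are named to account for their group, chosen after their values were seen. The alternatives tried were other read minimums, sites left out by level, base or rank, other assignment of sites to genes, another null value and a rule of size.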

Additional observations from a re-analysis of the deposited data

How the results depend on the processing

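No paired analysis was possible because each construct had 1 library, and for the same reason no replicate could be left out. With no minimum on reads the count at 7 aa ADARcd was 3 in place of 4, EIF3C lost, and the other 7 counts were equal. All 8 counts were equal without sites edited at 40% or more, with every spanning gene counted, with target-base sites only and with EIF3C and EIF3CL summed. With at least 10 reads in all 5 libraries 2 factor genes were called at 7 aa ADARcd (EIF2S3 and EIF3C). Without each gene's site of most edited reads the counts were 0, 1 and 1 at 7, 27 and 52 aa APOBEC1 (EIF1AX in the last 2) and 0, 0 and 0 at 7, 27 and 47 aa ADARcd. Over all genes that setting gave 13, 6, 6 and 6 calls with ADARcd, against 128, 34, 30 and 21. Against the odds ratio of all reads 2, 1 and 0 factor genes were called at 7, 27 and 74 aa APOBEC1 and 1 at 7 aa ADARcd. All genes called then numbered 49 at 74 aa APOBEC1 (5 higher and 270 lower before) and 43 at 7 aa ADARcd (128 before). The split of higher against lower calls moved from 196 and 44 to 73 and 99 at 7 aa APOBEC1, to 27 and 22 at 74 aa APOBEC1, from 2 and 126 to 11 and 32 at 7 aa ADARcd and from 14 and 7 to 6 and 9 at 74 aa ADARcd. A rule of size alone (a difference of at least 10 percentage points with 20 reads in both libraries) named 0, 1, 1 and 0 genes with APOBEC1 (EIF4E and EIF1B, both higher). With ADARcd it named EIF2S3 at 7, 27, 47 and 74 aa, and EEF1AKMT2 also at 7 aa. EEF1AKMT2 had 4 of 35 edited reads in GFP and 0 of 34 at 7 aa (unadjusted p = 0.114, Fisher's exact test). The share of all genes named by this rule is not given here, so its counts cannot be set against a background. With at least 20 reads the site test called 2 factor sites at 7 aa ADARcd, EEF2K added. The median over factor genes with 20 or more reads, in place of the pooled share, was 2.52% in APOBEC1 GFP, 2.35% at 52 aa and 0.469% at 74 aa, and with ADARcd 0.980% in GFP and 0.0566%, 1.89%, 0.339% and 0.191% at 7, 27, 47 and 74 aa. The cause of these changes was not tested, apart from the reads removed by each setting.

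Depth limits the ADARcd comparisons at the longer linkers: the median reads per factor site was 27 in GFP and 5 in the 74 aa library.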
